A study of Homo sapiens with 7 samples.

Results

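The TM4SF genes, also called the L6 family, encode small membrane proteins of tetraspan type, and 5 of them were followed here at the level of their transcripts: TM4SF1, TM4SF4, TM4SF5, TM4SF18 and TM4SF20. They were taken by symbol from the 58174 genes of the deposited table and chosen by FPKM values of this same comparison, siIGF2BP1 against siC, so the difference of each member between the groups is given as a description without a test. Of the 5 members, 3 (TM4SF1, TM4SF4 and TM4SF5) reached a mean of 1 FPKM over the libraries and were part of the fit of 14839 genes, whereas TM4SF18 and TM4SF20 lay below that level. FPKM, the deposited unit, is the number of fragments on a gene scaled to its length and to the size of the library, and allows levels of different genes to be compared.

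The proteins of this family cross the membrane with several helices and keep both ends in the cytoplasm, like the tetraspanins, but they lack the sequence marks of the large extracellular loop of tetraspanins and form a family of their own. They sit in the plasma membrane or in internal membranes and act by gathering integrins, receptors and signalling enzymes. TM4SF1, the L6 antigen, is found on many carcinomas and on endothelium, and TM4SF4 was described as a protein of intestine and liver. TM4SF5 is known from hepatocytes and hepatocellular carcinoma, and TM4SF20 from studies of the transcription factor CREB3L1.

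The cells were Huh-7, an established line of hepatocellular carcinoma, which had received either control siRNA (siC, 3 libraries) or pooled siRNAs targeting IGF2BP1 (siIGF2BP1, 4 libraries), and total RNA was sequenced 72 h later. The targeted gene encodes an RNA-binding protein of fetal tissues and tumours that associates with mRNAs in the cytoplasm, and the comparison asks which transcripts change once it is depleted. All libraries came from 1 cell line, with 1 siRNA pool and 1 time point, and nothing in the labels says whether replicates were separate cultures, so p-values measure the spread between these libraries, which may be technical.

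The depletion was read first. IGF2BP1 stood at 81.9, 80.4 and 84.4 FPKM in siC and at 15.6, 15.7, 16.6 and 15.3 FPKM in siIGF2BP1, so that 19.2% of the siC mean was left (log2 change −2.37, SE 0.06, adjusted p = 1.16e-05, limma across all tested genes) and the log2 change was −2.35 without siC replicate 3. Libraries held 12826550 to 33212205 reads on genes. The siC replicate 3 stood apart, with a Pearson correlation over genes of 0.916 and 0.929 to the other siC libraries, which correlated at 0.971 with each other. Leaving it out raised the calls over the table from 245 higher and 338 lower to 533 and 990. For most results, log2 changes and counts without this library are given beside those of all 7. Hepatocyte transcripts were present throughout (15 of 15 markers at 1 FPKM or more, summed level 6829 to 8840 FPKM in siC and 8276 to 8563 FPKM in siIGF2BP1, none past the threshold). Single markers still differed, with log2 changes from −0.49 (TTR) to 1.245 (AHSG, means 167.4 and 384.2 FPKM, adjusted p = 0.0115, limma). Hepatocyte markers were not counted without siC replicate 3. Of 14 markers of other cell types, 6 reached 1 FPKM (summed level of all 14 from 224.5 to 253.6 FPKM in siC and from 174.2 to 196.8 FPKM in siIGF2BP1). Of these, SOX9 alone passed the threshold, at a log2 change of −0.73 (adjusted p = 0.00512, limma) and of −0.62 without siC replicate 3. The 6 were LYZ (112.8 to 162.5 FPKM over all libraries), PECAM1 (2.58 to 3.29 FPKM), COL1A2, LUM, KRT19 and SOX9. Others of the same cell types, PTPRC, CD3E, CD68, VWF and CDH5, did not exceed 0.0387 FPKM in any library, and KRT7 was listed at 0. The part of SOX9 and of the other markers in the results below was not tested.

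In the human genome (GRCh38), 3 of the members lie side by side on chromosome 3. TM4SF18 (ENSG00000163762, chr3:149318498-149334414, minus strand) is followed after 34607 bases by TM4SF1 (ENSG00000169908, chr3:149369022-149377692, minus strand), and after another 97004 bases by TM4SF4 (ENSG00000169903, chr3:149474697-149503394, plus strand). WWTR1 (minus strand), the gene of the YAP-related coactivator TAZ, lies 13840 bases beyond TM4SF4, with its 3′ end on that side. TM4SF5 (ENSG00000142484, chr17:4771884-4783213, plus strand) and TM4SF20 (ENSG00000168955, chr2:227362038-227381995, minus strand) stand alone on other chromosomes. The canonical transcripts of TM4SF1, TM4SF4 and TM4SF5 have 5 exons, those of TM4SF18 and TM4SF20 have 6 and 4 exons, and the proteins range from 197 residues in TM4SF5 to 229 in TM4SF20. Their 3′ untranslated regions differ more in length, from 83 bases in TM4SF5 to 701 in TM4SF4, 844 in TM4SF1, 1686 in TM4SF20 and 2980 in TM4SF18.

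The coding sequences were similar enough to show kinship and too different to share reads. Pairwise identity of the coding bases ran from 44.5% for TM4SF5 with TM4SF20 to 56.5% for TM4SF1 with TM4SF18, with 55.6% for TM4SF1 with TM4SF4 and 54.9% for TM4SF4 with TM4SF5. The longest run of identical bases between the transcripts of any 2 members was 16 bases, between TM4SF4 and TM4SF18. TM4SF18 is overlapped by the antisense gene TM4SF18-AS1, and since the use of strand in counting is not stated in the sources used here, its reads cannot be assigned to 1 strand with certainty. No gene on the opposite strand overlaps TM4SF1, TM4SF4, TM4SF5 or TM4SF20.

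The promoters of the neighbours TM4SF1 and TM4SF4 are shown because these genes share a locus while their transcripts differed in response (values below). Each stretch runs from 250 bases before to 50 bases after the RefSeq start (GRCh38.p14), 5′ to 3′ on the strand of the gene, with matches to the motifs searched in capitals. For all 5 members the RefSeq start is also the start of the canonical transcript, which need not be the outer end of the gene span given above, since other annotated transcripts can begin further upstream. It lies 0 bases inside that span for TM4SF4, 2 for TM4SF5, 43 for TM4SF1, 778 for TM4SF18 and 2689 for TM4SF20, and distances are counted from it. TM4SF4 is chr3:149474447-149474746 on the plus strand and TM4SF1 is chr3:149377600-149377899 on the minus strand.
TM4SF4: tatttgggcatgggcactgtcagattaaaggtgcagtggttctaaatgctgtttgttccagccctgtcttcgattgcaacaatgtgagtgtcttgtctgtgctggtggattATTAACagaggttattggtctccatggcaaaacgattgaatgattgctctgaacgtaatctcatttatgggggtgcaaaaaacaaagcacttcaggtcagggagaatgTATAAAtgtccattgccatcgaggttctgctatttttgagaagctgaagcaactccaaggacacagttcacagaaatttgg
TM4SF1: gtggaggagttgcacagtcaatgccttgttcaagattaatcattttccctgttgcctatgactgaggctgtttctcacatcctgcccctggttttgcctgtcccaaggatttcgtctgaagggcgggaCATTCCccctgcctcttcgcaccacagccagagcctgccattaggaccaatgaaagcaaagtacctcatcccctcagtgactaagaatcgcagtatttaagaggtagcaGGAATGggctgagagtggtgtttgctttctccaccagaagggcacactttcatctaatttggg

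The motifs, searched on both strands, were AP-1 (TGANTCA), TEAD (GGAATG), the HNF1 core (GTTAAT), FOXA (TGTTTAC), HNF4 (CAAAGTCC), the TATA box (TATAAA) and the CArG box of SRF. The TM4SF4 promoter holds TATAAA beginning 31 bases before the start, a match that 11.5% of 35116 promoters have, and an HNF1 core, as ATTAAC on the plus strand, 139 bases before the start, a match that 6.88% have. The TM4SF1 promoter holds neither of these but 2 TEAD matches, 122 and 13 bases before the start of its canonical transcript, and 14% of promoters have at least 1. TM4SF18 has 1 TEAD match 46 bases before the start of its canonical transcript, and none of the motifs lies in the windows of TM4SF5 and TM4SF20. The AP-1, FOXA, HNF4 and CArG motifs, found in 7.71%, 3.42%, 1.2% and 1.29% of promoters, had no match in any of the 5 windows. The G and C content of the TM4SF4 window was 42.7%, below a median of 58.7% over all promoters. These are matches of letters, and no data here bear on binding at them.

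The 3′ untranslated regions of the canonical transcripts were also read for the seed matches of the microRNA family let-7, whose targets IGF2BP1 is known to shield in tumour cells, and of miR-122, the main microRNA of hepatocytes. None of the 5 regions holds the let-7 match CTACCTC or the miR-122 match ACACTCC. Among 1189 regions of a length similar to that of TM4SF4, 5.55% hold the first and 4.12% the second. For TM4SF18, which has the longest region, the shares at similar length are 15.1% and 11.2%. Absence of these letters says nothing of other sites or of other transcript forms.

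TM4SF4 was the member with the large difference. Its level was 4.71, 5.40 and 4.11 FPKM in the siC libraries and 18.5, 18.8, 19.9 and 19.2 FPKM in the siIGF2BP1 libraries. Every siIGF2BP1 library was more than 3 times as high as the highest siC library, and the 4 siIGF2BP1 values lay closer together than the 3 siC values (coefficient of variation 3.07% against 13.6%). The mean was 4.74 ± 0.645 FPKM in siC and 19.1 ± 0.586 FPKM in siIGF2BP1 (SD, n = 3 and 4), a ratio of 4.03. On the scale of the fit, log2(FPKM + 0.1), the change was 1.996 (SE 0.09) with all libraries and 1.90 without siC replicate 3. These values rest on 121 to 370 reads per siC library and 533 to 755 reads per siIGF2BP1 library.

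Set among the genes tested, TM4SF4 moved from the 44.4th percentile of level in siC to the 82.7th percentile in siIGF2BP1. Its log2 change ranked 47 among all rises and 12 among those past the threshold of 0.01 for the adjusted p. The gain in FPKM, 14.3, ranked 121. Of the 3 members in the fit, 1 (TM4SF4) passed the threshold, where 3.93% of the 14839 genes did (245 higher, or 1.65%, and 338 lower, or 2.28%), and 0.566% were both past it and higher by a log2 change of 1 or more, as TM4SF4 was. At an unadjusted p under 0.05 the share of all genes was 25.9%. Without siC replicate 3 the share past the threshold was 10.3%. These shares are background, and nothing is read from this count because the members were chosen with the comparison known.

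TM4SF1 was the most abundant member and nearly level. It stood at 47.6, 46.8 and 48.0 FPKM in siC and at 51.2, 48.9, 51.7 and 53.4 FPKM in siIGF2BP1. All siIGF2BP1 values were above all siC values, by a small margin, a separation that 27% of the 14839 genes showed in either direction. The mean was 47.5 ± 0.580 FPKM in siC and 51.3 ± 1.86 FPKM in siIGF2BP1 (SD, n = 3 and 4), a ratio of 1.08. The log2 change was 0.11 (SE 0.05), 0.12 without siC replicate 3, and 2423 to 5504 reads per library stood behind it. With quantile normalization it was 0.19. Its level was above that of 93.7% of the genes tested in siC and 94.7% in siIGF2BP1.

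TM4SF5, known as a partner of integrins and receptor kinases in liver cells, showed overlapping groups. Its values were 20.7, 18.4 and 19.4 FPKM in siC and 19.8, 22.2, 19.8 and 24.3 FPKM in siIGF2BP1. The siIGF2BP1 replicates 1 and 3 fell among the siC libraries and replicates 2 and 4 above them. Averaged over libraries, TM4SF5 had 19.5 ± 1.1 FPKM in siC and 21.5 ± 2.15 FPKM in siIGF2BP1 (SD, n = 3 and 4), with a log2 change of 0.14 (SE 0.09), also 0.14 without siC replicate 3. Without siIGF2BP1 replicate 4 it was 0.079.

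**Figure D1:**
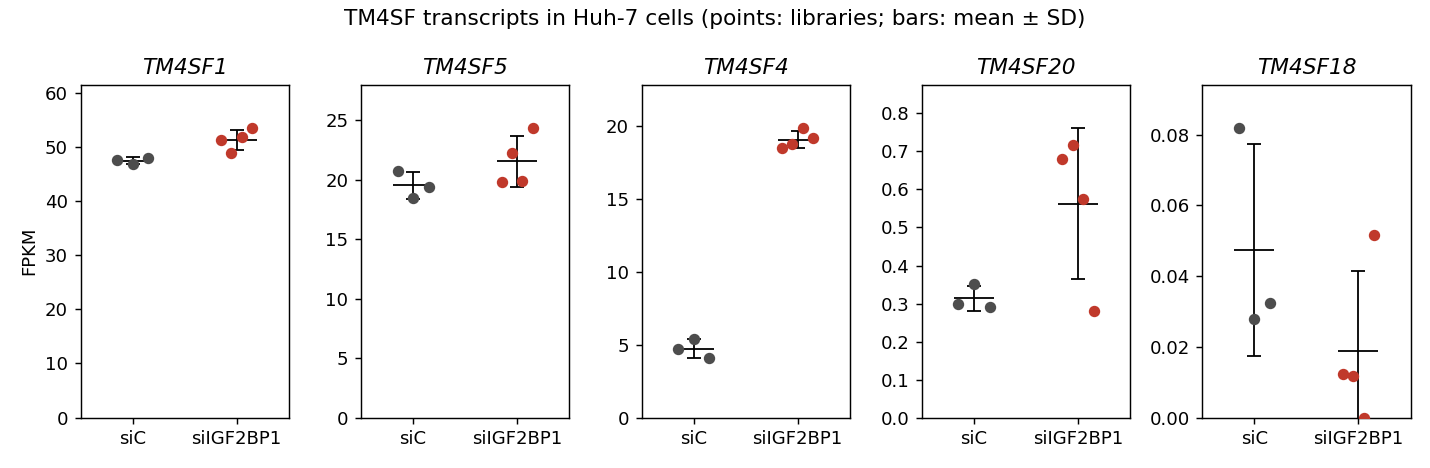
Level in FPKM (y axis, linear and starting at 0, with its own range in each panel) of the 5 TM4SF transcripts in the siC and siIGF2BP1 libraries, points being libraries and bars the mean ± SD, of which the lower end for TM4SF18 is cut off at 0. The 4 siIGF2BP1 points of TM4SF4 lie between 18.5 and 19.9 FPKM, above siC points of 4.11 to 5.40, while TM4SF5 and TM4SF20 overlap between groups.

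TM4SF20 was low in both groups and uneven in siIGF2BP1. It read 0.299, 0.351 and 0.290 FPKM in siC and 0.681, 0.716, 0.575 and 0.279 FPKM in siIGF2BP1. Replicates 1 to 3 of siIGF2BP1 were above every siC library and replicate 4 was below every siC library, so the groups overlapped because of 1 library. The mean was 0.313 ± 0.0330 FPKM in siC and 0.563 ± 0.198 FPKM in siIGF2BP1 (SD, n = 3 and 4), a ratio of 1.80. Without siIGF2BP1 replicate 4 the second mean was 0.657 ± 0.0733 FPKM (SD, n = 3) and the ratio 2.1, and without siC replicate 3 the log2 change was 0.58 in place of 0.62. Pooled over libraries, 60 reads in siC gave 0.322 FPKM (exact Poisson 95% interval 0.246 to 0.414) and 102 reads in siIGF2BP1 gave 0.586 FPKM (0.478 to 0.712). These intervals cover counting error only, and replicate 4 held 10 of the reads.

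TM4SF18, which has been described in endothelial cells, was at the edge of detection. Its values were 0.0818, 0.0279 and 0.0324 FPKM in siC and 0.0123, 0.0119, 0 and 0.0516 FPKM in siIGF2BP1. They stand for 8, 4 and 2 reads in siC and for 1, 1, 0 and 3 reads in siIGF2BP1, and the groups overlapped. The library without a read allows a level of up to 0.0505 FPKM (3 reads). Pooled, 14 reads in siC gave 0.0462 FPKM (exact Poisson 95% interval 0.0253 to 0.0775) and 5 reads in siIGF2BP1 gave 0.0177 FPKM (0.00574 to 0.0413). These intervals overlap, cover counting error only and are not a test of a difference. The log2 change was −0.31, and −0.38 without siC replicate 3, with a pseudocount of 0.1 that is above every TM4SF18 value. TM4SF19, the remaining human relative and not among the 5 members, had 1 read in siC replicate 1 and 1 read in siIGF2BP1 replicate 2.

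The order of the members by level was the same in both groups, with 1 gap nearly closed. In siC the mean FPKM of TM4SF1 was 2.43 times that of TM4SF5, TM4SF5 was 4.12 times TM4SF4, TM4SF4 was 15.1 times TM4SF20, and TM4SF20 was 6.62 times TM4SF18, with no overlap between neighbours in this order. Without siC replicate 3 the first 3 ratios were 2.41, 3.87 and 15.5. In siIGF2BP1 the ratio of TM4SF1 to TM4SF5 was 2.38 and that of TM4SF5 to TM4SF4 was 1.13, and the values of TM4SF5 and TM4SF4 overlapped. TM4SF4 was then 33.9 times TM4SF20. TM4SF20 was above TM4SF18 in each siIGF2BP1 library, by a factor that rests on 5 TM4SF18 reads and ran from 5.42 to 60.2 in the libraries with a read. Within single libraries TM4SF5 stood at 3.41 to 4.73 times the level of TM4SF4 in siC and at 0.999 to 1.27 times in siIGF2BP1.

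These levels depend on the gene length used for scaling. The deposited length of TM4SF1 is 3668 bases, where its canonical transcript has 1555, and the corresponding lengths are 2140 and 1491 bases for TM4SF4 and 932 and 714 bases for TM4SF5. Per length of the canonical transcript, the siIGF2BP1 means were 121 FPKM for TM4SF1, 28.1 for TM4SF5 and 27.4 for TM4SF4, and the siC means were 112, 25.5 and 6.80 FPKM. The order stayed as before, and the difference of a gene between the groups does not depend on its length.

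**Figure D2:**
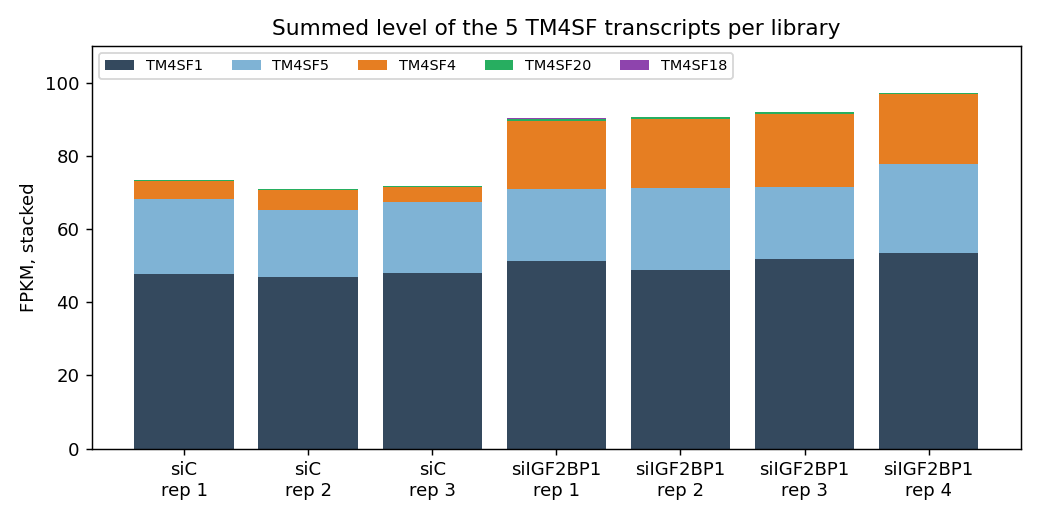
Stacked FPKM (y axis, starting at 0) of TM4SF1, TM4SF5, TM4SF4, TM4SF20 and TM4SF18 in each of the 7 libraries. The stacks reach 71.0 to 73.4 FPKM in siC and 90.2 to 97.2 FPKM in siIGF2BP1, and the TM4SF4 segment is the one that visibly differs in height.

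The sum of the 5 transcripts was 73.4, 71.0 and 71.8 FPKM in siC and 90.2, 90.7, 92.0 and 97.2 FPKM in siIGF2BP1. The mean sum was 72.1 ± 1.17 FPKM in siC and 92.5 ± 3.23 FPKM in siIGF2BP1 (SD, n = 3 and 4), and the groups did not overlap. Without siC replicate 3 the siC mean was 72.2 ± 1.63 FPKM (SD, n = 2). TM4SF4 made up 6.58% ± 0.949 of the sum in siC and 20.6% ± 0.760 in siIGF2BP1 (SD, n = 3 and 4), the former being 7.01% without siC replicate 3. The share of TM4SF1 went from 65.9% to 55.5% and that of TM4SF5 from 27.1% to 23.3%, although neither transcript had a lower mean FPKM in siIGF2BP1. TM4SF20 and TM4SF18 together stayed below 1% of the sum in each library. The sum and the shares rest on the deposited gene lengths. Per length of the canonical transcript the siC means were 112 FPKM for TM4SF1 and 6.80 FPKM for TM4SF4, so the shares would differ, and they were not computed.

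Likeness of pattern was measured as the Pearson correlation of log2(FPKM + 0.1) over the 7 libraries with 10671 protein-coding genes, as a description. The libraries form 2 groups, and a gene that differs between them correlates for that reason alone, so the correlation of the deviations from the group means is given beside it. The genes were picked by the first correlation, which contains these deviations, so the second is not a separate check. Nearest to TM4SF4 were ZNF320, a zinc finger gene (r = 0.9995, within groups 0.9542), STAU1, which encodes the RNA-binding protein Staufen (0.9987, within groups 0.9067), and IFT57, a gene of transport in cilia (0.9981, within groups 0.8696). ANXA4, which encodes a calcium-dependent membrane-binding annexin, and TXNIP, which encodes an inhibitor of thioredoxin, both correlated at 0.9975 (within groups 0.7753 and 0.7664). TXNIP went from 5.31 ± 0.493 FPKM in siC to 23.5 ± 0.338 FPKM in siIGF2BP1 and ANXA4 from 11.4 ± 0.611 to 23.9 ± 0.844 FPKM (SD, n = 3 and 4). For ZNF320 the levels were 3.11 ± 0.127 and 4.84 ± 0.0577 FPKM, so the nearest gene in pattern had a much smaller ratio than TM4SF4. In all, 60 genes had r above 0.99 with TM4SF4, and IGF2BP1 itself had r = −0.9947. Over the 6 libraries without siC replicate 3, r was 0.9968 to 0.9993 for these 5 genes.

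Over the 7 libraries, r with the nearest genes was lower for TM4SF1 and TM4SF5 than for TM4SF4. Within groups it was not lower, at 0.8686 to 0.9597 for TM4SF1 against 0.7664 to 0.9542 for TM4SF4. Nearest to TM4SF1 were GPX3, a secreted glutathione peroxidase (r = 0.9876, within groups 0.9597), LAPTM4A, a lysosomal membrane protein (0.9704, within groups 0.8975), and LGALS3, which encodes galectin-3 (0.9632, within groups 0.9102), followed by H2AFY2 and BUD31. Nearest to TM4SF5 were the kinase gene CSNK1E (0.935), the cytochrome P450 gene CYP2B6 (0.917), PRTFDC1 (0.8973), WWTR1 (0.8954) and WDR3 (0.8828), with correlations within groups from 0.8497 to 0.9862. Without siC replicate 3, r was 0.9603 to 0.9867 for the 5 genes nearest to TM4SF1 and 0.8734 to 0.9295 for those nearest to TM4SF5. Between members, r was 0.827 for TM4SF4 with TM4SF1, 0.535 for TM4SF4 with TM4SF5 and 0.605 for TM4SF1 with TM4SF5, and without siC replicate 3 it was 0.831, 0.475 and 0.569. Within groups of all 7 libraries the same pairs gave −0.150, −0.200 and 0.305. Over so few libraries these values cannot show how much of the spread between replicates the members shared.

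Related genes were then set beside the members, with the change of each gene tested by limma over all 14839 genes. The tetraspanins, a separate family of scaffolding proteins of the membrane, counted 19 tested genes of 33. Of these, 1 was lower and none higher at the threshold (5.26% of the list against 3.93% of all genes). At an unadjusted p under 0.05 by limma, 2 were higher and 6 lower, where 25.9% of all genes passed in either direction. The median log2 change was −0.07 against −0.02 over all genes. The tetraspanin past the threshold was CD81, a partner of many receptors and an entry factor of hepatitis C virus. It read 8.62, 8.34 and 7.75 FPKM in siC and 5.25, 4.72, 5.38 and 5.37 FPKM in siIGF2BP1 (log2 change −0.66, SE 0.08, adjusted p = 0.00291, limma). The groups did not overlap, a separation that 27% of all genes showed in either direction. The call was lost in 5 of the 7 fits that left out 1 library (siC replicates 1 and 2, siIGF2BP1 replicates 1, 3 and 4), while the log2 change stayed between −0.70 and −0.58 in all alternatives. Without siC replicate 3, 1 tetraspanin was higher and 2 were lower (15.8% of the list against 10.3% of all genes in that fit).

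The claudins and the PMP22/EMP genes, which encode tetraspan proteins of tight junctions and of membranes, gave no call, where 3.93% of all genes had one. Of 24 genes 9 were tested. At an unadjusted p under 0.05 by limma, 2 were higher and 3 lower, where 25.9% of all genes passed. The median log2 change was 0.05. With voom on recovered reads 1 was lower, and without siC replicate 3, where 10.3% of all genes passed, 2 of the 9 were lower. When only genes whose mean reached 5 FPKM were kept, the median was −0.45, with 1 gene lower, so the sign of the median depends on the filter.

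Proteins described as partners of TM4SF members (integrins, receptor kinases, CD44, syntenins, STAT3, CREB3L1 and others) counted 12 tested genes of 16, with 1 higher and 1 lower at the threshold (16.7% of the list against 3.93% of all genes) and a median log2 change of 0.10 against −0.02 over all genes. STAT3, a transcription factor of cytokine signalling, was higher, at 10.2, 10.5 and 9.62 FPKM in siC and 14.98, 14.4, 14.2 and 14.4 FPKM in siIGF2BP1 (log2 change 0.52, SE 0.06, adjusted p = 0.00263, limma). IGF1R, the receptor of insulin-like growth factors, was lower, at 4.63, 4.22 and 5.26 FPKM in siC and 2.43, 2.61, 2.69 and 2.52 FPKM in siIGF2BP1 (log2 change −0.85, SE 0.10, adjusted p = 0.00288, limma). Neither gene overlapped between groups, a separation that 27% of all genes showed. Each call was lost in 6 of 7 fits without 1 library, siC replicate 3 being the exception. Without that library 2 partners were higher and 1 was lower (25% against 10.3% of all genes), and the log2 changes of STAT3 and IGF1R were 0.48 and −0.76. ITGB1, the common beta chain of many integrins, had means of 82.2 and 100.7 FPKM and did not pass the threshold with all libraries (adjusted p = 0.0207, limma), but passed it without siC replicate 3 (adjusted p = 0.00435, limma). The adapter gene SDCBP2 and the receptor gene DDR1, both tied to TM4SF1, were below 1 FPKM on average, as were CD44 and CREB3L1.

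**Figure D3:**
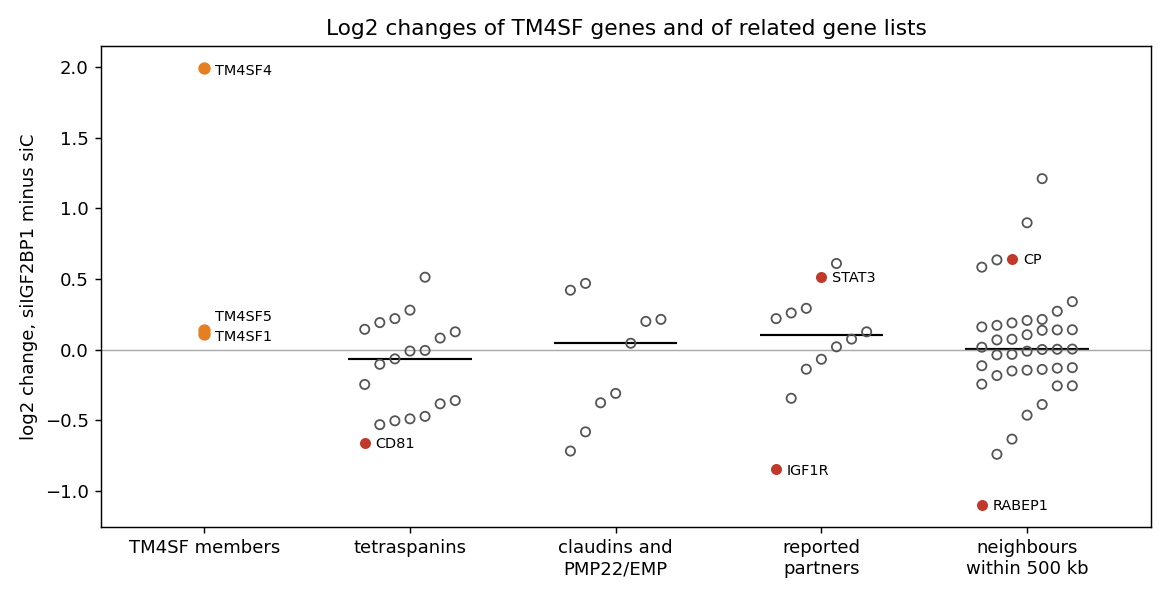
Log2 change, siIGF2BP1 minus siC, on the log2(FPKM + 0.1) scale (y axis) for the 3 TM4SF members in the fit and for each tested gene of 4 lists (x axis), with filled red points for genes past the threshold of 0.01 and a horizontal line for the median of each list. TM4SF4 lies at 1.996, above every gene of the lists, whose medians run from −0.07 to 0.10.

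Genes within 500 kb of the members were compared to see whether the change of TM4SF4 was shared by its surroundings. Around the 3 members on chromosome 3, 11 of 37 listed neighbours were tested, 1 was higher and none lower at the threshold (9.09% against 3.93% of all genes). At an unadjusted p under 0.05, 3 were higher and 2 lower by limma, where 25.9% of all genes passed, and the median log2 change was 0.14. For 7 of the 11 the groups did not overlap, in either direction (63.6% against 27% of all genes). The log2 change was above 0 for 8 of the 11 (72.7% against 47.1% of all genes). Whether the locus as a whole changed was not tested. The neighbour past the threshold was CP, which encodes the copper-carrying plasma protein ceruloplasmin. It read 11.6, 13.0 and 11.2 FPKM in siC and 19.0, 20.5, 16.8 and 18.6 FPKM in siIGF2BP1, with no overlap (log2 change 0.64, SE 0.09, adjusted p = 0.00575, limma). Its call was lost in 6 of 7 fits without 1 library, siC replicate 3 again being the exception, and in the fit without a filter. Without siC replicate 3 its log2 change was 0.60.

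WWTR1, the nearest tested neighbour of TM4SF4, had 3.16, 2.99 and 3.13 FPKM in siC and 3.42, 3.79, 3.36 and 3.86 FPKM in siIGF2BP1. The groups did not overlap, as in 27% of all genes, the log2 change was 0.21 (SE 0.08), and the adjusted p was 0.158 (limma). TM4SF4, at 1.996, thus lay between genes whose log2 changes were 0.11 (TM4SF1) and 0.21 (WWTR1). The noncoding gene WWTR1-IT1, within WWTR1, had 1.21 (SE 0.41) from 2 to 20 reads per library. It did not reach the threshold (adjusted p = 0.116, limma).

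Around TM4SF5, 24 of 64 neighbours were tested, with none higher and 1 lower at the threshold (4.17% against 3.93% of all genes; 3 and 3 at an unadjusted p under 0.05, limma) and a median log2 change near 0, which was −0.17 without siC replicate 3. The lower one was RABEP1, which encodes the endosomal protein Rabaptin-5 and lies 499052 bases from TM4SF5. Its values were 14.3, 14.5 and 13.6 FPKM in siC and 6.70, 6.95, 6.09 and 6.46 FPKM in siIGF2BP1 (log2 change −1.10, SE 0.07, adjusted p = 0.000426, limma), and it passed in 7 of 7 fits without 1 library, with −1.13 without siC replicate 3. Around TM4SF20, 5 of 17 neighbours were tested and none passed (2 were lower at an unadjusted p under 0.05, limma). Of all genes, 25.9% had an unadjusted p under 0.05 (limma). Over all 3 loci 40 genes were tested, with 1 higher and 1 lower (5% against 3.93%), and 2 higher and 1 lower without siC replicate 3 (7.5% against 10.3%).

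**Figure D4:**
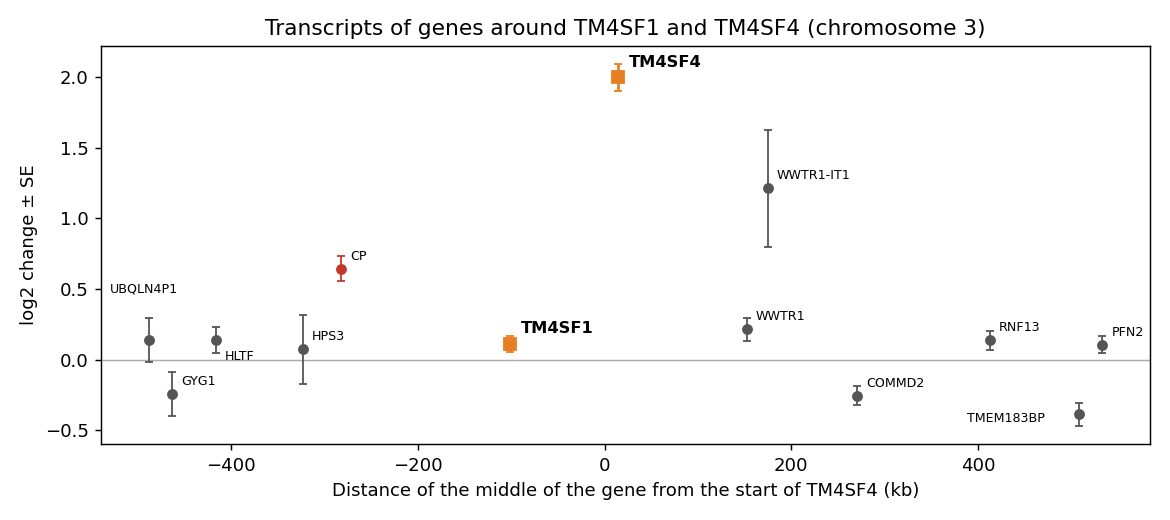
Log2 change ± SE, siIGF2BP1 minus siC (y axis), of TM4SF1, TM4SF4 (orange squares) and the 11 tested neighbours within 500 kb (circles, red where past the threshold) against the distance of the middle of each gene from the start of TM4SF4 in kb (x axis). TM4SF4 lies at 1.996, TM4SF1 at 0.11, WWTR1 at 0.21 and WWTR1-IT1 at 1.21, and CP is the neighbour past the threshold, at 0.64.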

How the data were processed

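Total RNA of 7 Huh-7 libraries was sequenced after depletion of ribosomal RNA with a strand-aware kit. According to the methods, the authors used Cutadapt 1.14 for clipping and HISAT2 2.1.0 for alignment to GRCh38, handled alignments with SAMtools 1.5 as named in the submitters' processing notes, counted reads per gene with featureCounts 1.5.3 over Ensembl release 89 and tested genes with edgeR 3.18.1 after TMM scaling. Whether counting used strand is not given in the sources used here. The deposited table holds 1 FPKM value per gene and library, which the authors scaled to gene length and library size. Its columns of log2 fold changes, p-values and FDR were not used. All sample columns matched a label.

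From the deposited FPKM, the 14839 genes whose mean reached 1 FPKM were fitted on the log2(FPKM + 0.1) scale by limma 3.58.1 in R 4.3.3, with its trend option and the group (siIGF2BP1 against siC) as the single term. Tests were two-sided, p-values were adjusted after Benjamini and Hochberg, and the threshold was 0.01. Fold changes on this scale understate those of genes with low values. FPKM times length gave whole reads, within 0.01 reads, for all values above 0, and hence depth (12826550 to 33212205 reads) and the Poisson intervals. Levels were compared between genes in FPKM only.

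Groups and replicate numbers were taken from sample titles. The members and all lists were chosen with earlier results of these data known, so nothing rests on their choice. Named were the members, IGF2BP1, the listed genes past the threshold, WWTR1, SOX9 and the 5 protein-coding genes most correlated with each tested member. ITGB1, SDCBP2, DDR1, CD44, CREB3L1, TTR, AHSG, EEF1A1P45 and WWTR1-IT1 were named after their values were seen. Positions and transcripts are from GENCODE release 44 on GRCh38, the build of the files. Alternatives were another pseudocount, filters, centring, quantile normalization, voom, limma without a trend, a replicate block, each library left out, a threshold of 0.05 and neighbours within 250 kb, and, added after the data were seen, levels per canonical transcript length.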

Additional observations from a re-analysis of the deposited data

How the results depend on the processing

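The log2 change of TM4SF4, a description, ran from 1.81 (pseudocount 1) to 2.09 over the alternatives, and from 1.90 to 2.09 when each library was left out. TM4SF1 (0.19 with quantile normalization) and TM4SF5 had a higher mean in siIGF2BP1 in each alternative. TM4SF18 had −0.31, and −0.040 with a pseudocount of 1.

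Leaving out 1 library gave 53 to 990 lower and 66 to 533 higher genes over the table, both maxima without siC replicate 3. No filter gave 206 lower and 146 higher genes and a threshold of 0.05 gave 1010 and 703. On the lists, leaving out 1 library gave 0 to 1 higher and 0 to 2 lower tetraspanins, 0 to 2 lower claudin and PMP22/EMP genes, 0 to 2 higher and 0 to 1 lower partners with medians from 0.080 to 0.16, and 0 to 2 higher neighbours with medians from −0.034 to 0.086. With voom 2 tetraspanins, 1 claudin or PMP22/EMP gene and 2 neighbours were lower. At a mean of at least 5 FPKM the medians were 0.10 for tetraspanins, −0.45 for claudins and PMP22/EMP (1 lower), 0.13 for partners (0 lower) and −0.11 for neighbours. The partner median was 0.048 without a filter, 0.13 with median centring and 0.20 with quantile normalization. No filter left 0 higher neighbours and a distance of 250 kb left 0 lower ones. For single genes, 253 of the other values kept their direction and call, 39 lost the call, 3 gained it and none changed sign. The 253 include values of genes that had no call with all libraries and so none to lose. Losses were 8 of 15 for CP, 7 of 15 for STAT3, 7 of 14 for IGF1R and for ZNF320 and 6 of 15 for CD81. ANXA4, IFT57, RABEP1 and TXNIP each lost the call in 1 alternative, the replicate block, in which 0 genes passed over the whole table. The cause of that was not tested.

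The replicate numbers are shared between the groups, but same-numbered libraries did not deviate together (correlations −0.026, −0.118 and −0.111). The main fit used no pairing. Since the deviations are from means of only 3 and 4 libraries, these correlations cannot exclude a pairing or a shared batch. With the replicate block, which leaves out siIGF2BP1 replicate 4, 0 genes were lower and 0 higher over the table, 0 members were called, the lists had 0 calls, IGF2BP1 had a log2 change of −2.36 without passing the threshold, and TM4SF4 had 1.99. Depth limits TM4SF18 and TM4SF20, with 0 to 37 reads per library.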

Other observations

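Inside intron 3 of TM4SF4, on the same strand and without touching an exon, lies EEF1A1P45 (chr3:149494660-149495995), a processed pseudogene of the translation factor gene EEF1A1. It read 0.206, 0.187 and 0.381 FPKM in siC and 0.909, 0.798, 0.734 and 0.519 FPKM in siIGF2BP1, from 6 to 22 reads per library. The groups did not overlap, a separation that 27% of the 14839 genes tested showed in either direction, and the ratio of the means was 2.87. The gene was below the filter and was not tested. As a copy of an abundant transcript, it can share reads with its parent and with other copies, and its values are uncertain to that extent. Whether its reads came from intron RNA of TM4SF4 was not tested.

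WWTR1-IT1, a noncoding gene within the neighbour WWTR1 on the same strand, read 0.711, 1.38 and 0.322 FPKM in siC and 1.59, 1.42, 2.01 and 2.05 FPKM in siIGF2BP1, from 2 to 20 reads per library. The groups did not overlap, as in 27% of all genes tested. The log2 change was 1.21 (SE 0.41), and WWTR1-IT1 did not pass the threshold (adjusted p = 0.116, limma).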
